A study of Mus musculus with 2 samples.

Results

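Inflammasome genes were examined in the transcriptome of primary and self-renewing macrophages: the sensors Nlrp3, Nlrc4, Aim2 and Nlrp1b, the NLRC4 receptors Naip2 and Naip5, the adaptor Pycard, the caspases Casp1 and Casp4, and the pore-forming gasdermin Gsdmd. These 10 genes were taken from a list of names, and every gene probe whose transcript accession names a member was compared. All 10 had a probe, out of 22910 named genes on the array. Primary macrophages were adherent cells grown from C57BL/6 bone marrow and collected at day 5, and self-renewing macrophages grew out of colonies in such a culture and were collected after passage 4, as bulk cells rather than a clone if the general statement of the methods holds for the array. Both were kept in 100 ng/ml rhM-CSF, the macrophage growth factor, with no genetic change and no LPS named for either, and RNA of 1 sample of each was hybridised to 1 array. Differences are therefore described by size, without replicates or a test. Neither the age of the mice nor the number of animals is given in the labels.

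An inflammasome is a protein platform that macrophages assemble in the cytosol when they meet microbes or damage. A sensor recruits caspase-1, often through the adaptor ASC, and the active caspase matures interleukin-1β and interleukin-18 and cuts gasdermin D, whose N-terminal part opens pores in the plasma membrane and causes pyroptosis, an inflammatory cell death. In mice a second, non-canonical route runs through the product of Casp4 (also called Casp11), which binds bacterial lipopolysaccharide in the cytosol and cuts gasdermin D directly.

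Spot intensities are given as measured, and levels and differences as log2 relative to the 75th percentile of all gene probes on the same array, which was an intensity of 434 in primary macrophages and 446 in self-renewing macrophages. A probe counts as detected where the scanner software flagged it as well above background. Levels depend on the probe itself, so those of different probes are not compared. The scanner software's own error for a single spot came to about 0.20 log2 for the difference of a bright probe, and probes of the same gene disagreed by a root mean square SD of 0.33 log2 over 5077 genes. Markers of macrophages were detected on both arrays for 10 of 10 genes. Of 10 neutrophil markers, 8 were detected in primary macrophages and 4 in self-renewing macrophages, where S100a8, S100a9, Ltf and Ngp were not well above background. Their summed intensity was 45626 and 2927, respectively. Most of the latter came from Elane, which read 3602 in primary and 2671 in self-renewing macrophages, 1.39-fold lower. Of 6 markers of T, B and NK cells, 4 and 3 were detected, with summed intensities of 1098 and 1085. Both samples are labelled male, yet of 4 Y-linked genes looked at, 0 were detected in primary macrophages and 4 in self-renewing macrophages, while Xist was detected in primary macrophages only. Donor and cell type therefore cannot be told apart.

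Transcripts of all inflammasome members were detected in both cell types, and most differed little between them. All 15 probes of the 10 genes were well above background on both arrays. No member, 0 of 10, was 2-fold higher in self-renewing macrophages, where 4.76% of 15515 detected genes were, and 0 of 10 were 2-fold lower, where 8.38% of genes were. These shares include genes detected on 1 array only. Of the 14003 genes detected on both arrays, as all members were, 588 were 2-fold higher and 781 lower. Differences under 0.5 log2 were found for 9 of 10 members, against 72.9% of the 14003 genes detected on both arrays. Casp4 was the exception, at 1.997-fold higher. Of the members, 7 were higher and 3 lower, beside 7096 higher and 6907 lower of the 14003 genes detected on both arrays. Naip5, Pycard and Casp1 are counted although they differed by less than the scanner error, and Nlrp1b although its probes disagreed in direction. The median difference of the members was 0.24 log2, beside -0.02 log2 over all detected genes and 0.006 log2 over those detected on both arrays. The authors' own scaling moves every gene up by the same amount, and the median of all genes to 0.17 log2. With it, the median of the members was 0.43 log2 and Casp4 was the 1 member past 2-fold. Nlrp3, Aim2, Naip2 and Gsdmd then also passed 0.5 log2, at 0.63, 0.59, 0.54 and 0.63 log2, while the other members stayed under it.

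**Figure D1:**
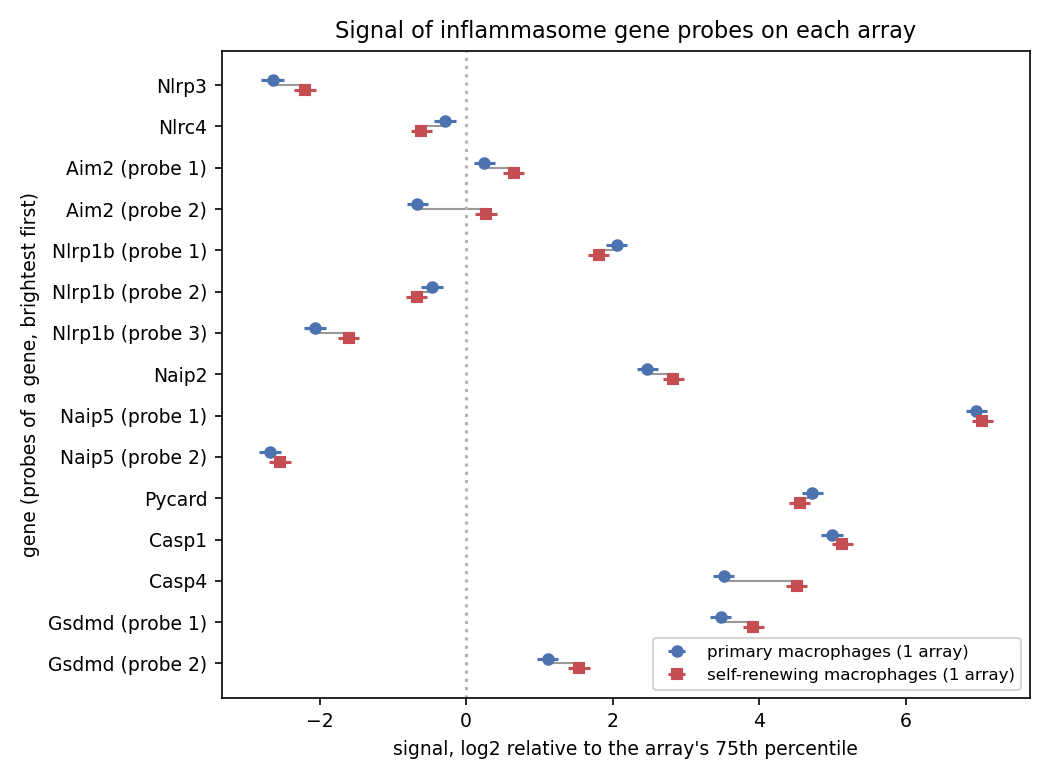
Signal of each of the 15 probes for the 10 inflammasome genes, on the x axis as log2 relative to the 75th percentile of the array, in primary macrophages (circles) and self-renewing macrophages (squares), 1 array each. Bars are the scanner software's error for the spot, and the symbols of each pair lie close together, farthest apart for Casp4 and the second Aim2 probe.

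Because Casp1 and Casp4 are neighbouring genes whose differences were 0.14 and 0.998 log2, the sequences before their RefSeq start sites are shown (GRCm38.p6, plus strand, 250 bases each, Casp1 at chr9:5298267-5298516 and Casp4 at chr9:5308599-5308848). Capitals mark matches to the NF-κB consensus on either strand.
Casp1: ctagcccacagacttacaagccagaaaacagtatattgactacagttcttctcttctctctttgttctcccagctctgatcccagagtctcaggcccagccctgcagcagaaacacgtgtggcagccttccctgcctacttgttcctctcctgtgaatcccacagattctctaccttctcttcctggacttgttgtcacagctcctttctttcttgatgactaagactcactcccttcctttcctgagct
Casp4: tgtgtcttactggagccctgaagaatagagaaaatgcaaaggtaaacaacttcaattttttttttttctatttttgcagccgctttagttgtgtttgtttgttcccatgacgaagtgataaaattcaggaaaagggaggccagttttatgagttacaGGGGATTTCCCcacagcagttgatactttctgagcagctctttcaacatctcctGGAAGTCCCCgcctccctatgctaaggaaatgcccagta
The window of this Casp4 start, the first of its listed starts, held 3 matches, of which 2 overlap, and that of Casp1 held 0. The match was not particular to Casp4: it was found in 4 of 12 windows of the members, from Casp4, Naip5 and Nlrp3. The Casp4 windows among these overlap and hold the same matches. Casp4, Naip5 and Nlrp3 differed by 0.998, 0.08 and 0.44 log2, and whether the match bears on these differences was not tested. Such a match was present in 8.46% of all 32851 promoter windows, which reach from 250 bases before to 50 bases after a start.

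The NAIP receptors and their partner Nlrc4 are shown for a feature that their promoters share (GRCm38.p6, minus strand, the 120 bases before the start, Naip2 at chr13:100202123-100202242, Naip5 at chr13:100247337-100247456 and Nlrc4 at chr17:74459109-74459228). Capitals mark the ETS motif AGGAAGT on either strand, a sequence bound by the macrophage factor PU.1 and its relatives.
Naip2: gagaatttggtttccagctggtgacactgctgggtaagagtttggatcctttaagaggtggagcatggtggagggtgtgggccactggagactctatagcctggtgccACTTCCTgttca
Naip5: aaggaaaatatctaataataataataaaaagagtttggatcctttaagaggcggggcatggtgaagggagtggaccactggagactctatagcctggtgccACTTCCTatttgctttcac
Nlrc4: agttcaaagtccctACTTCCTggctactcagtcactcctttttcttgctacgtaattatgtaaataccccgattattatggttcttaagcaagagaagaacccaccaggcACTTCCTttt
In each of these genes a copy of the motif lay close to the start, at position -12 in Naip2, -19 in Naip5 and -10 in Nlrc4, counted to the motif's base farthest from the start. Naip2 and Naip5 are copies of an ancestral gene, and their windows shared a stretch of 134 bases that was 91.8% identical. Over the 9 members that RefSeq's table of promoters lists, 6 held the motif, namely Aim2, Naip2, Naip5, Nlrc4, Nlrp1b and Pycard, and 6 of their 12 windows held it, where 9.35% of all windows did. The interferon response element core GAAANNGAAA and the ETS-IRF element GGAANNGAAA, searched on both strands, were found in 0 of the 12 windows, beside 3.44% and 2.72% of all windows. The only other motif searched, TTCNNNGAA (called GAS), was also found in 0 of the 12 windows, beside 8.3% of all windows. The motifs were chosen after the values had been seen, and a match is a description of the letters only. Gsdmd has no entry in the table.

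Among the 4 sensors, differences by the brightest probe of each gene stayed below 0.5 log2. Nlrp3, which responds to potassium loss and many kinds of cell damage, had 1 probe, with an intensity of 69.6 in primary macrophages and 97.5 in self-renewing macrophages. Relative to the 75th percentile this was 1.36-fold higher in the latter, a difference of 0.44 log2 with a scanner error of 0.22 log2, and 31.2% of genes detected on both arrays differed by at least as much. With a model-based background correction, which draws dim probes together, Nlrp3 differed by 0.15 log2.

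Aim2, which binds double-stranded DNA in the cytosol, had 2 probes, and both were higher in self-renewing macrophages. The brighter probe read 514 in primary and 700 in self-renewing macrophages, or 0.40 log2 higher. The second read 273 and 538, or 0.94 log2 higher. The direction was thus shared by the probes, while the size was 1.32-fold by the brighter and 1.92-fold by the dimmer probe. Nlrp1b, a sensor that is activated when microbial proteases cut it, had 3 probes that did not share a direction. The brightest read 1803 and 1562, at -0.25 log2. The next gave -0.21 log2 and the dimmest 0.45 log2. The mean over the 3 probes was -0.002 log2, so that the array fixed no direction for Nlrp1b. Nlrp1b has close relatives in the mouse genome, and whether their transcripts bound these probes was not tested.

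Nlrc4 encodes the platform protein that the NAIP receptors activate. Its only probe read 355 in primary and 292 in self-renewing macrophages, which is 1.25-fold lower, and its difference was the lowest of all members at -0.32 log2. Naip5, the receptor for bacterial flagellin, read 54099 in primary and 58946 in self-renewing macrophages by its brighter probe, with no saturated spot. The difference was 0.08 log2, and 82.1% of genes detected on both arrays differed by at least as much. A second Naip5 probe read 67.8 and 76.7, which gave 0.14 log2. Naip2, the receptor for the rod protein of bacterial secretion systems, read 2410 and 3159, or 0.35 log2 higher, by 1 probe. Both Naip5 probes lay within their scanner errors of 0.20 and 0.22 log2, so that no direction is given for Naip5, and Naip2 and Nlrc4 differed by less than 0.5 log2. The mouse Naip genes are related copies, and whether transcripts of a relative bound these probes was not tested.

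Pycard encodes ASC, the adaptor that links most sensors to caspase-1. Its probe read 11437 in primary macrophages and 10470 in self-renewing macrophages. At -0.17 log2 it differed by less than the scanner error of 0.20 log2, and with the authors' scaling its sign turned, to 0.02 log2. Casp1, the protease of the canonical inflammasome, read 13806 and 15639, a difference of 0.14 log2 that was also below the scanner error. For Pycard and Casp1, then, neither array stood apart from the other beyond that error.

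Casp4, the sensor protease of the non-canonical route, differed most of the members. Its only probe read 4952 in primary macrophages and 10175 in self-renewing macrophages, which gave levels of 3.51 and 4.51 log2 above the 75th percentile and a difference of 0.998 log2. Among genes detected on both arrays, 9.83% differed by at least as much in either direction. Its difference was 0.97 log2 with the model-based background correction and 1.19 log2 with the authors' scaling, so that it lay close to 2-fold on either side. Filters on background and the mean over probes cannot change it, as its only probe was detected on both arrays.

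Gsdmd, the executioner of both routes, was higher by both of its probes. The brighter probe read 4816 and 6742, and the dimmer one 939 and 1298. Their differences were 0.44 and 0.43 log2, so the probes shared direction and size. In fold, Gsdmd was 1.36-fold higher in self-renewing macrophages. Of genes detected on both arrays, 31.2% differed by at least as much.

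**Figure D2:**
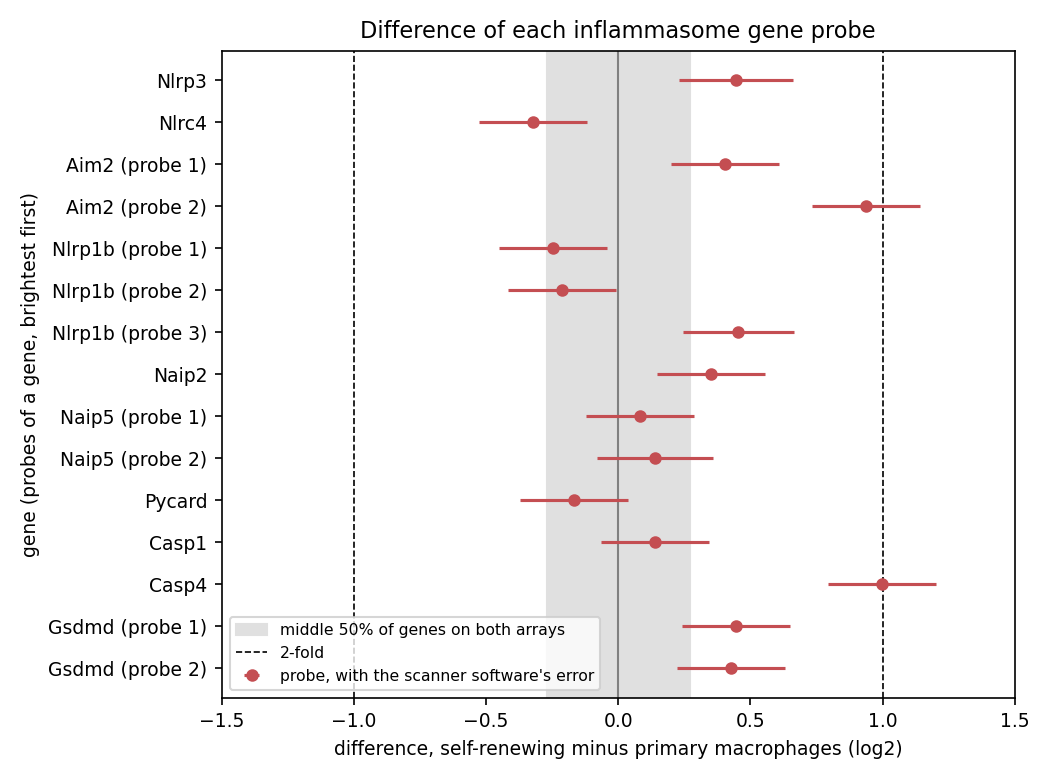
Difference of each probe between self-renewing and primary macrophages (x axis, log2) with the scanner software's error as bars, beside the 2-fold lines (dashed) and the middle 50% of genes detected on both arrays (grey, -0.27 to 0.27 log2). Casp4 lies on the line for 2-fold, and the 3 Nlrp1b probes fall on both sides of 0.

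**Figure D3:**
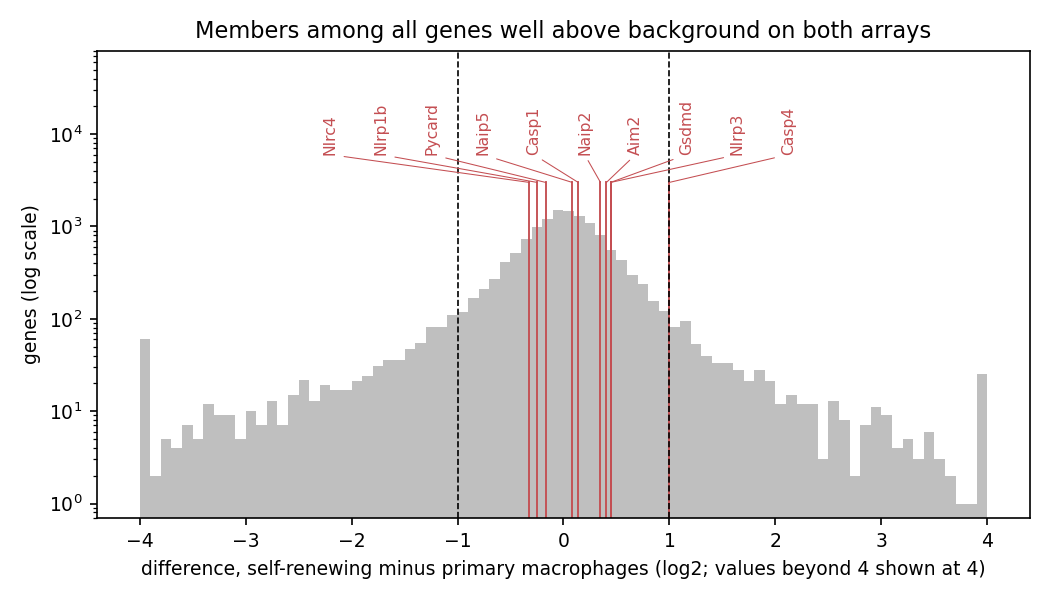
Number of genes (y axis, log scale) by their difference between self-renewing and primary macrophages (x axis, log2) over the 14003 genes detected on both arrays, with the 10 members drawn as vertical lines and 2-fold as dashed lines. From Nlrc4 at -0.32 to Nlrp3 at 0.44 log2, 9 members lie within 0.5 log2 of 0, and Casp4 at 0.998 log2 coincides with the 2-fold line. Values beyond 4 log2 are drawn at 4.

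Other genes of the pathway were taken from a list of 76 names that covers further sensors, upstream activators, restraining genes, other death effectors, the released cytokines and transcription factors. Of these, 73 had a named probe, all but Naip7, Ifi207 and Ifi203, and 69 were detected, 68 of them on both arrays. At 2-fold, 1 gene was higher and 6 were lower in self-renewing macrophages, and the median of the list was 0.06 log2. The 6 lower genes were Mefv, Gsdme, Ripk3, Panx1, Cgas and Nlrp12, and the higher gene was Il1b. Their share of the list, 1 of 69 higher and 6 of 69 lower, stood beside the 4.76% and 8.38% of all genes given above.

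Mefv encodes pyrin, the sensor that assembles an inflammasome when bacterial toxins inactivate RhoA, and it differed more than any other gene of the list. Its brighter probe read 1024 in primary macrophages and 18.9 in self-renewing macrophages, close to the lowest signal flagged as well above background there, 13.2. This was 55.6-fold lower, or -5.80 log2. The dimmer probe read 132 and 44.4, at -1.61 log2, so the probes shared the direction but not the size. With the model-based background correction the brighter probe gave -3.62 log2. Pyrin is known from granulocytes and monocytes, and the summed intensity of the neutrophil markers was also lower in self-renewing macrophages, with all 8 detected markers lower and a median of -5.22 log2. Whether RNA of such cells contributed to the Mefv signal was not tested, and in bulk RNA fewer cells of a type and less RNA per cell cannot be told apart.

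Of the sensors in the list, Mefv included, 11 genes were detected, with 5 higher, 6 lower and a median of -0.21 log2. Cgas, the DNA sensor that makes the second messenger for STING, read 3135 and 1549 by its brighter probe, 2.08-fold lower, and its second probe was lower too, at -0.87 log2. With the authors' scaling Cgas was at -0.87 log2, which is short of 2-fold. Nlrp12 was detected in primary macrophages only, at an intensity of 26.0, and was at least 2.04-fold lower in self-renewing macrophages, a bound that shrank to -0.37 log2 with the model-based background correction. Naip1 was nearest to no difference at -0.21 log2, and Naip6, named after its value had been seen, was at 0.24 log2. Nlrp6 was not well above background on either array.

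Of the genes that act upstream of the sensors, 13 of 18 were above 0, beside 7096 of 14003 genes detected on both arrays, as all 18 were. The median of the 18 was 0.17 log2, which is below the scanner error of a single gene. Panx1, which encodes a channel for ATP release, was the only one past 2-fold by its brightest probe. That probe read 5565 and 2438, 2.35-fold lower. Nek7, the kinase that binds NLRP3, differed by 0.24 log2, and Ddx3x was nearest to no difference at 0.04 log2. P2rx7 and Txnip were higher by each of their probes. P2rx7, the receptor for extracellular ATP that triggers NLRP3, had 3 probes at 0.70, 0.48 and 1.06 log2, of which the brightest read 2668 and 4461. Txnip had 2 probes at 0.77 and 0.81 log2. The guanylate-binding proteins, which open bacterial membranes and expose lipopolysaccharide to caspase-11, did not share a direction, with Gbp2 at 0.58, Gbp3 at 0.72, Gbp5 at -0.37 and Gbp7 at 0.16 log2. Nek7, P2rx7, Txnip and the guanylate-binding proteins were named here after their values had been seen.

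Of 13 restraining genes, all detected on both arrays, 0 passed 2-fold in either direction, beside 4.76% of all detected genes higher and 8.38% lower. Of the 14003 genes detected on both arrays, 588 were 2-fold higher and 781 lower. They ranged from -0.71 to 0.82 log2 with a median of 0.26 log2. Under 0.5 log2 were 8 of the 13, beside 72.9% of genes detected on both arrays. Dpp8 and Dpp9, proteases that hold NLRP1B inactive, were at 0.56 and -0.11 log2 by their brightest probes, but a second Dpp8 probe gave -0.46 log2, so that its direction was not fixed. Both were named after their values had been seen. Serpinb1a, an inhibitor of inflammatory caspases, read nearly alike on both arrays, at -0.03 log2.

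Of the other caspases and death effectors, 11 of 13 detected genes were below 0, with a median of -0.25 log2. Of the 14003 genes detected on both arrays, as these 13 were, 6907 were below 0. The 11 include Gsdmc at -0.01 log2 and Chmp4b at -0.23 log2, whose second probe gave 0.38 log2. Gsdme, a second pore-forming gasdermin, read 8109 in primary macrophages and 3022 in self-renewing macrophages, 2.76-fold lower. Ripk3, the kinase of necroptosis, read 5608 and 2299, 2.51-fold lower. Both stayed past 2-fold with the authors' scaling, at -1.28 log2 for Gsdme and -1.14 log2 for Ripk3. Mlkl, which is phosphorylated by RIPK3 and permeabilises the membrane in necroptosis, was at -0.68 log2, and Ninj1, which ruptures the membrane at the end of lytic death, was lower by both probes, at -0.88 and -0.92 log2. Ripk1 was the highest of this role, at 0.51 log2 by its brighter probe, while its second probe gave -0.02 log2. The apoptotic initiator Casp8 was at -0.25 log2. Casp12 and Gsdma were not well above background on either array. Mlkl, Ninj1, Ripk1 and Casp8 were named after their values had been seen. The gasdermins lay on both sides of 0, with Gsdmd at 0.44, Gsdme at -1.47 and Gsdmc at -0.01 log2.

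**Figure D4:**
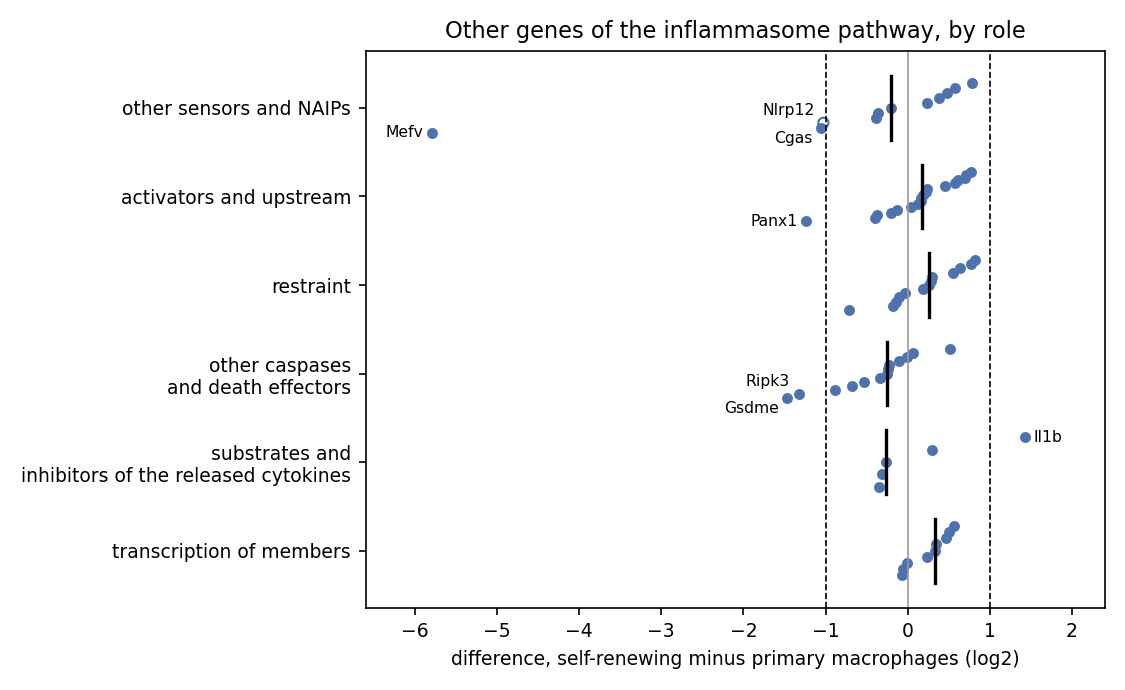
Difference between self-renewing and primary macrophages (x axis, log2) of the 69 detected genes of the pathway list, in rows by role, with each gene as a point (open for Nlrp12, a bound), the median of a role as a vertical bar and 2-fold as dashed lines. Genes past 2-fold are named, and Mefv at -5.80 log2 stands far to the left of the others.

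The substrates of caspase-1 were both detected. Il1b, which encodes pro-interleukin-1β and is induced by Toll-like receptor signals, was close to background on both arrays, with its brighter probe at an intensity of 24.8 in primary macrophages and 68.6 in self-renewing macrophages. It was 2.69-fold higher. The second probe was detected in self-renewing macrophages only, with a bound of 1.09 log2. With the model-based background correction the difference was 0.47 log2, short of 2-fold. Il18, which macrophages express without priming and which was named after its value had been seen, together with Il1rn, read 2034 and 2568, at 0.30 log2. Il1a was not well above background on either array. Il1rn and Il18bp, which encode inhibitors of the released cytokines, were at -0.35 and -0.27 log2.

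Of 9 transcription factors and receptors known to act on inflammasome genes, 0 passed 2-fold in either direction. Over all detected genes 4.76% were 2-fold higher and 8.38% lower. Of the 14003 genes detected on both arrays, as these 9 were, 588 were 2-fold higher and 781 lower. The 9 ranged from -0.07 to 0.56 log2, and 7 of them differed by under 0.5 log2, beside 72.9% of genes detected on both arrays. Irf2, which drives Gsdmd, was nearest to no difference at -0.01 log2. Irf8, which drives Naip genes, was at -0.07 log2, and Spi1, which encodes PU.1, at 0.23 log2. Irf1 of the interferon response was at 0.34 log2, and the NF-κB subunits Nfkb1 and Rela at 0.50 and 0.34 log2. These factors, apart from Irf2, were named after their values had been seen.

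**Figure D5:**
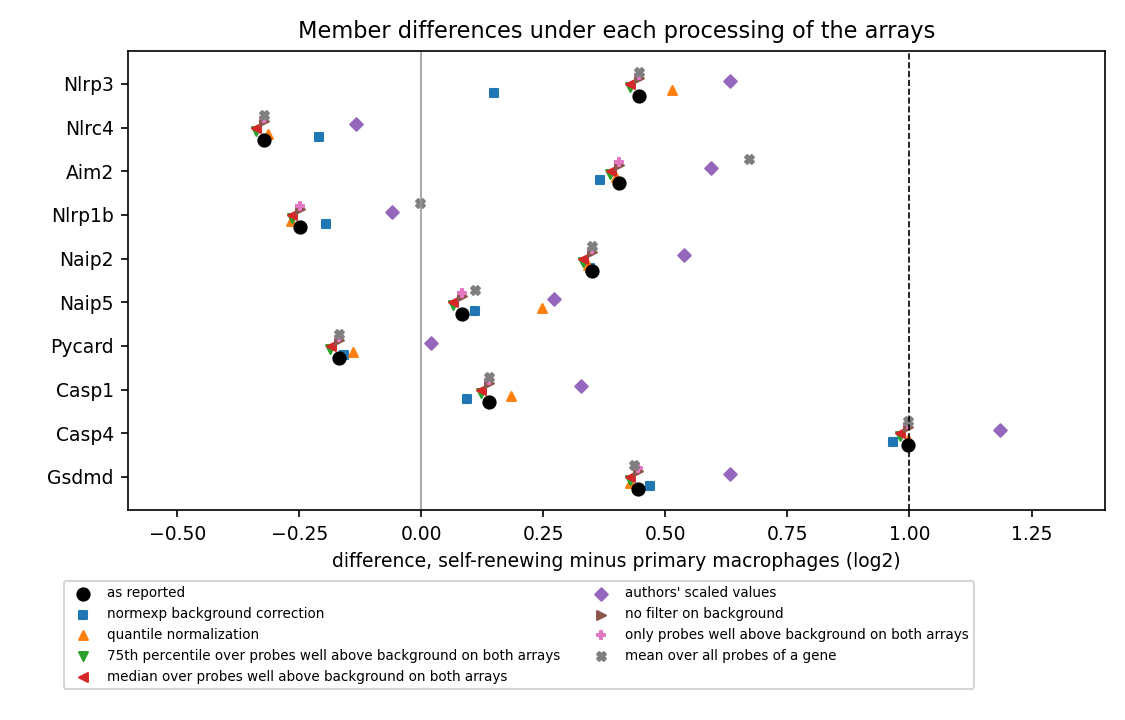
Difference of each member (x axis, log2, self-renewing minus primary macrophages) as reported (black circles) and under 8 other ways of processing the arrays, with 0 as a solid and 2-fold as a dashed line. The authors' scaling moves every gene to the right, which takes Pycard across 0 and Casp4 past 2-fold.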

How the data were processed

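One array per cell type was run on an Agilent SurePrint G3 platform for mouse genes, with Cy3 as the only dye. The authors deposited spot intensity from Feature Extraction 11.5.1.1, corrected for background on each array but not scaled between arrays, and a table that holds this intensity times 1.07 (primary) or 1.19 (self-renewing). The normalization behind these constants is not given in the sources used here. Deposited flags tell which spots were detected, saturated (0 gene spots) or outlying.

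After removal of outlier spots (63 per array) and averaging of repeated spots, values were turned into log2 units with the 75th percentile over gene probes set to 0. Accessions named 32988 of 56598 probes through RefSeq's GRCm38.p6 table. The array was designed on another assembly, so coordinates are given for promoter windows only. The brightest probe stood for its gene. Where a gene was detected on 1 array, its difference is a bound, taken from the lowest detected signal of the opposite array or the gene's own signal there, whichever was higher. Members and lists were chosen with earlier results of these data known. Named are all members, pathway genes past 2-fold, the gene nearest to 0 of each role, and others marked in the text. Values of some pathway genes are not reported here. A 2-fold threshold replaced a test, since 1 array per cell type limits the precision. Alternatives were a normexp correction (offset 50, on the median spot signal, as no mean is given), 4 scalings, 2 filters and the mean over detected probes. Scripts were tested on simulated arrays. Python 3.11.15, numpy 2.4.6, pandas 2.3.3, matplotlib 3.10.9, R 4.3.3 and limma 3.58.1 were used.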

Additional observations from a re-analysis of the deposited data

How the results depend on the processing

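No paired analysis was possible because there was 1 array per cell type, and leaving out a replicate was not possible either. A member's value was taken as unmoved where its shift stayed under the SD of 0.33 log2 among a gene's probes, and no value of a member went past it. This says little of stability, since the members' probes were all detected on both arrays, so that the filters on background return the same values, the mean over probes does so for genes with 1 probe, and 3 scalings shift every gene alike. The settings that act on single genes took Nlrp3 to 0.15 log2 (normexp), and Aim2 to 0.67 and Nlrp1b to -0.002 log2 (mean over probes). Of the pathway genes past 2-fold in any setting, 5 values moved further, namely Nlrp12 at -0.37, Mefv at -3.62 and Il1b at 0.47 log2 with the normexp background correction with an offset of 50, Nlrp12 at -2.01 log2 with no filter on background, and Mefv at -3.70 log2 with the mean over its detected probes. No member or gene past 2-fold changed sign, apart from Pycard, whose value is given above, which was below 2-fold throughout. Cgas was short of 2-fold with the mean over probes (-0.96 log2) and the authors' values, and Nlrp12 with quantile normalization (-0.78 log2) and the authors' values (-0.84 log2).

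With normexp, the median of the members was 0.13 log2, 0 pathway genes were 2-fold higher, and 2-fold was passed by 429 higher and 750 lower genes. With quantile normalization the pathway median was 0.13 log2. With the authors' scaled values, 1 member and 2 pathway genes, Il1b and Nlrc3 (1.01 log2), were 2-fold higher, the medians of members and pathway list were 0.43 and 0.25 log2, and 49.2% of all genes past 2-fold were higher, in place of 36.2%. Without the background filter, 1192 of all genes were 2-fold higher and 2336 lower, against 739 and 1300. With only probes detected on both arrays, 782 were lower, which follows from leaving out genes detected on 1 array. The cause of the other shifts was not tested. Naming probes by a gene name column was not run, as the scanner files hold accessions. Signals near background limit Mefv, Il1b, Nlrp12 and Nlrp3.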
